A study of Mus musculus with 10 samples.

Results

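The interleukin-1 system was described through the 8 genes *Il1a*, *Il1b*, *Il1rn*, *Il1r1*, *Il1rap*, *Il18*, *Il33* and *Casp1*, picked by gene symbol among the 15900 genes of the hippocampal CAGE table. Of these, 7 were in the table and all 7 passed a filter of 0.1 CPM (tags of a gene scaled to a common library total) or more in 2 or more libraries, while *Il18* was not analysed here. CAGE (cap analysis of gene expression) sequences the capped end of each RNA, so that 1 tag stands for 1 transcript start whatever the length of the transcript, and CPM values of different genes can be set side by side. The RNA came from whole hippocampi of male ICR mice, 2 animals for each of the 5 groups. The pre-SE mice had no status epilepticus (SE) and carry the label of untreated animals. The paper gives its control mice saline in place of pilocarpine (PILO) and calls pre-SE mice both control and naive. Whether these 2 mice had saline is not stated. The SE 6 h and SE 2 days mice had methyl scopolamine, then PILO, and diazepam to end SE, and were sampled at 6 h or 2 days without further drug. The SE + LEV 6 h and SE + LEV 2 days mice went through the same procedure and were also given oral levetiracetam (LEV), an antiseizure drug, as 1 dose by 6 h and as repeated doses by 2 days. No group had LEV without SE, so an action of LEV on the resting hippocampus cannot be told apart from one on the response to SE.

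The interleukin-1 ligands IL-1α and IL-1β bind the receptor IL-1R1, which then recruits the accessory chain encoded by *Il1rap* and signals through the adaptor MyD88 to NF-kappaB. IL-1β and IL-18 are made as inactive precursors that caspase-1, the product of *Casp1*, cuts inside the inflammasome, whereas IL-33 is held in the nuclei of glial and other cells and released upon damage. The receptor antagonist encoded by *Il1rn* occupies IL-1R1 without recruiting the accessory chain. In the brain, microglia are a main source of IL-1β, and the system is known for its rise after seizures.

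*Il1a* and *Il1b* are neighbours on the minus strand of chromosome 2, at chr2:129125346-129135708 and chr2:129190306-129196875 of mm9, 54.6 kb apart, and *Il1rn* lies on the plus strand of the same chromosome at chr2:24192373-24207014. The other members are *Il1r1* (chr1:40281925-40373043), *Il1rap* (chr16:26581790-26730203), *Il33* (chr19:29999604-30035194) and *Casp1* (chr9:5298517-5307265), all on the plus strand. *Il1a*, *Il1b* and *Il1rap* each overlap 1 gene annotated on the other strand, and none of these 3 partners had a row in the table. Since the sources used here do not state whether strand was used in summing tags to genes, the values of these 3 members could include tags of their partners. Because CAGE tags mark transcription starts, the 250 bases before the RefSeq starts of the antagonist and of its competing ligands are shown, taken from RefSeq (GRCm38.p6) and each found once, letter for letter, in mm9. Capitals mark the letters of AP-1 (TGANTCA) or of the PU.1 core (GAGGAA), searched on both strands. *Il1rn* has several annotated starts, of which the outermost and a downstream one are given, at chr2:24192130-24192379 and chr2:24200561-24200810. The *Il1a* and *Il1b* stretches lie at chr2:129135709-129135958 and chr2:129196876-129197125 and read along the minus strand.
Il1rn, outermost start: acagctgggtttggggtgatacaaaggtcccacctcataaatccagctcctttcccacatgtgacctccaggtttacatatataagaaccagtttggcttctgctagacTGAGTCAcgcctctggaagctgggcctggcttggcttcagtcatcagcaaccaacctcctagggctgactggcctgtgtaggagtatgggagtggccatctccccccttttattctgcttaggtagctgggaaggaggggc
Il1rn, downstream start: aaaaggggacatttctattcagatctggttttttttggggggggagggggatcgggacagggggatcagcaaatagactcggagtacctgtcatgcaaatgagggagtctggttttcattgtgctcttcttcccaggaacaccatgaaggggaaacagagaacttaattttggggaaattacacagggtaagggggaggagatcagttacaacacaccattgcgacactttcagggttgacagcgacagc
Il1a: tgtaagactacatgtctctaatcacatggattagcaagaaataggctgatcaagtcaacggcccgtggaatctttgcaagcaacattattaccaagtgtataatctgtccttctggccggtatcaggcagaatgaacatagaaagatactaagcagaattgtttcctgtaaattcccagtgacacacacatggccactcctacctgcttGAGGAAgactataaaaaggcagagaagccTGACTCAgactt
Il1b: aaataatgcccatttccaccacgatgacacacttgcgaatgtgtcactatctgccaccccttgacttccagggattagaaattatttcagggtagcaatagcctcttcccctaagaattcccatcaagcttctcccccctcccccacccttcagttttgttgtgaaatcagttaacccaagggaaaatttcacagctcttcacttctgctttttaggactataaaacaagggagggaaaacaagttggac
The outermost *Il1rn* stretch held an AP-1 match that begins 141 bases before the start, and the *Il1a* stretch held one beginning 12 bases before it. AP-1 letters were present in 2 of the 11 stretches of the 7 members, compared with 6.7% of 32851 RefSeq stretches of the same length. The *Il1a* and *Casp1* stretches held the PU.1 core, compared with 23.3% of all. C/EBP letters (TTGCNNAA; 9.6% of all) were found before 1 start each of *Il1r1* and *Il33*, and an NF-kappaB match (7.3% of all) before 1 start of *Il1r1*. The cyclic AMP response element TGACGTCA, in 1.5% of all, was in none of the 11, and the *Il1b* and *Il1rap* stretches held no match to any of the 5 motifs. These matches describe letters only, and the table gives 1 value per gene, so tags of the separate *Il1rn* starts were not told apart.

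Each library held 10540698 to 51710969 tags on the listed genes. A count of 3 tags, used here as the detection limit, equalled 0.058 to 0.285 CPM. Differences (logFC) were taken on log2(CPM + 0.1) and tested with limma over 15851 genes, with Benjamini-Hochberg adjustment and a call at an adjusted p of at most 0.05. This scale understates changes of genes with low CPM. With 2 mice against 2, an exact permutation test cannot give a p below 0.33, and each call therefore depends on the spread limma shares among genes and groups. Neuronal, astrocytic and oligodendrocyte markers were high in every library, as a hippocampal sample would have. The summed markers of microglia (8 of 8 in the table) were 372 to 440 CPM before SE, 273 to 292 at 6 h without and 281 to 296 with LEV, and 853 to 999 at 2 days without and 926 to 1141 with LEV. At 6 h after SE, *Tmem119* and *P2ry12*, which mark resting microglia, were called lower (logFC = -2.50 and -2.51). Markers of the choroid plexus (3 of 5 in the table), a tissue next to the hippocampus, ran from 8.21 CPM in SE 6 h replicate 1 to 3985 CPM in SE 6 h replicate 2 and differed between mice in the other groups too.

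Before SE, the accessory chain *Il1rap* was by far the most abundant member, and the values of *Il1b* and *Il1rn* were at or near the limit of detection. *Il1rap* had 77.0 ± 9.84 CPM (SD, n = 2) and *Il1r1* 17.9 ± 0.205 CPM in pre-SE mice, compared with 0.575 ± 0.601 CPM for *Il1a*, 0.07 ± 0.099 CPM for *Il1b* and 0.035 ± 0.0071 CPM for *Il1rn*. *Il33* (15.2 ± 6.90 CPM) and *Casp1* (5.34 ± 0.735 CPM) lay between. *Il33* overlapped *Il1r1* in its values by mouse, and *Il1b* overlapped *Il1rn*, so these neighbours in the order did not differ beyond their spread, whereas the lower *Il1a* value (0.15 CPM) was just above the higher *Il1b* value (0.14 CPM). *Il1rap* alone made up 66.4% of the summed CPM of the 7 members before SE and 41.6% in SE 2 days mice, in which *Il33* had become second with 59.3 ± 13.8 CPM. By mean CPM, *Il1rn* moved from the last place before SE to the fourth in SE 6 h mice, and was sixth in SE + LEV 6 h mice. In values by mouse it overlapped *Il33*, *Casp1* and *Il1a* in SE 6 h mice and *Il1b* in SE + LEV 6 h mice, so its order among these did not differ beyond their spread.

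**Figure D1:**
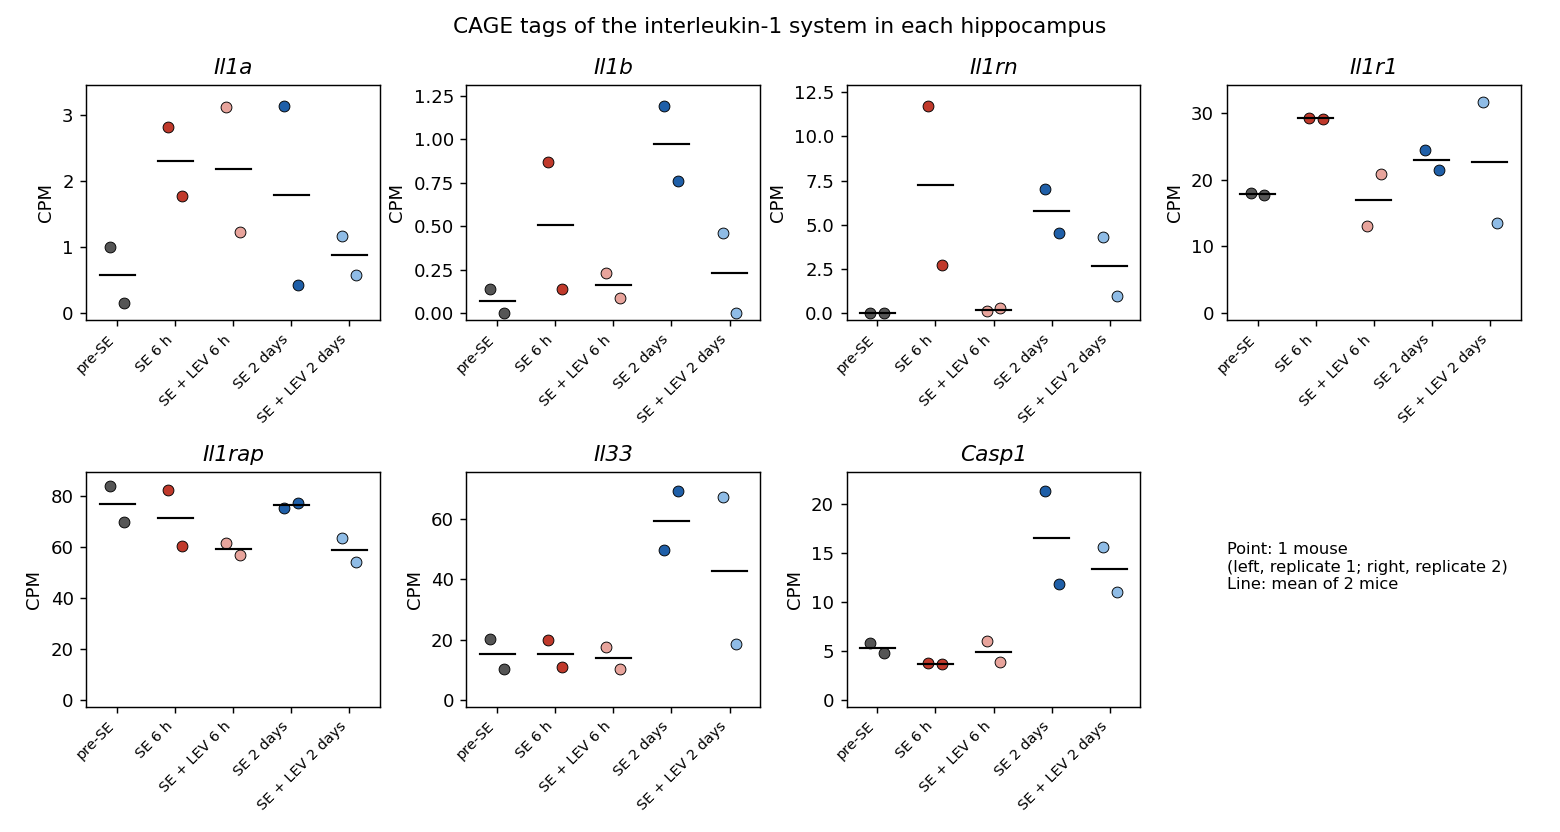
CPM (vertical axes, from 0, a separate scale for each gene) of the 7 members in each mouse, by group, with a line at the mean of 2 mice. *Il1rn* is near 0 in pre-SE and SE + LEV 6 h mice and between 2.74 and 11.71 CPM in both SE groups, whereas *Casp1* is higher in every mouse at 2 days than in any other mouse, as *Il33* is except in SE + LEV 2 days replicate 2 at 18.40 CPM.

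The antagonist *Il1rn* had the largest logFC of the 7 members at both times after SE. Before SE its values were 0.03 and 0.04 CPM (replicates 1 and 2). At 6 h after SE they were 11.71 and 2.74 CPM, and at 2 days 7.0 and 4.54 CPM. Every SE mouse lay far above both pre-SE mice, and the SE mice at 6 h and 2 days overlapped, with a wide spread between the SE 6 h mice. *Il1rn* was called higher at 6 h (logFC = 5.42 ± 0.76 (SE), adjusted p = 0.0054) and at 2 days (logFC = 5.41 ± 0.76, adjusted p = 0.0032), and these calls held under all 13 alternatives of each comparison, with adjusted p from 0.00304 to 0.0403 at 6 h and from 0.000743 to 0.0266 at 2 days. Since the pre-SE mice gave only 1 and 2 tags, the fitted size depends on the added 0.1 CPM and is no bound. Counted over pooled libraries, 405 tags at 6 h stood against 3 before SE, which, scaled to the summed tags of the libraries, is a ratio of 238 with an exact 95% interval of 80.9 to 1159, and 260 tags at 2 days gave 157 (53.2 to 767). Of the 405 tags, 365 were from SE 6 h replicate 1, and without that mouse the ratio at 6 h was 73.7 (23.5 to 373). These intervals cover counting error only and not the spread between mice. In whole tissue, a change in the number of cells of a type cannot be told apart from a change in the RNA of each cell.

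Of the 7 members, *Il1rn* was the one called at 6 h, against 2.96% of all genes tested called in either direction. At 2 days, *Il1rn* and *Casp1* were called, against 5.66% of all genes. The median logFC of the 7 was 0.70 at 6 h, compared with -0.13 for all genes, and 1.56 at 2 days, compared with -0.032.

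**Figure D2:**
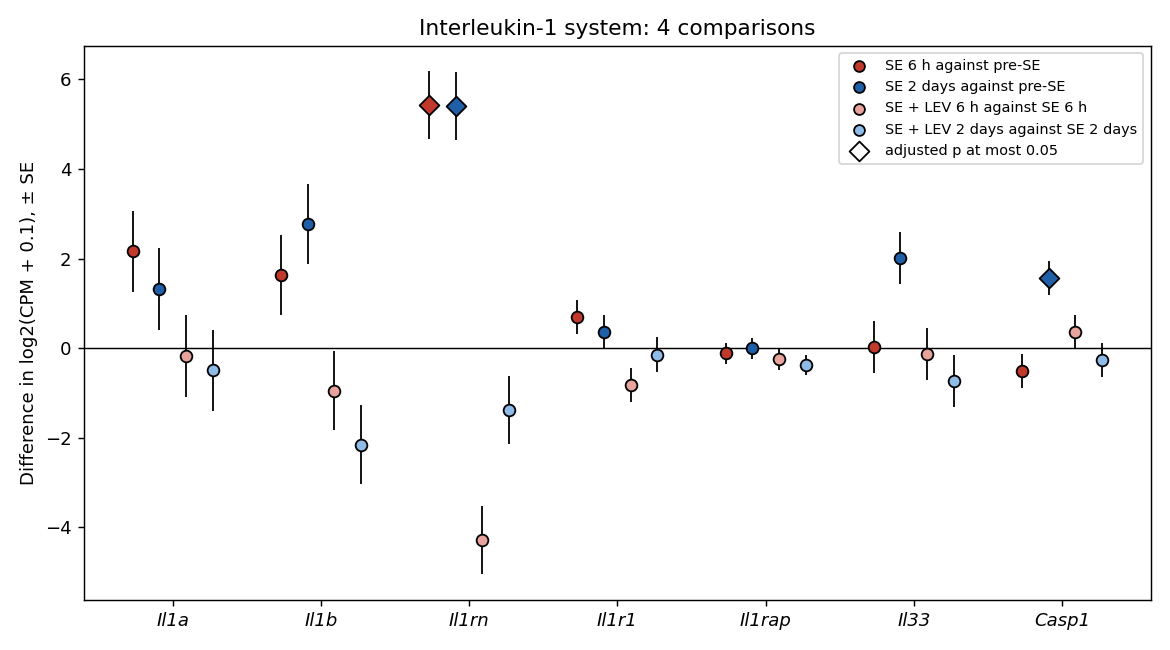
Difference in log2(CPM + 0.1) with its SE (vertical axis) for the 7 members in 4 comparisons, with diamonds for an adjusted p of at most 0.05 in limma. Diamonds mark *Il1rn* at 5.42 and 5.41 and *Casp1* at 1.56, and none of the SE + LEV against SE points is a diamond.

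The agonist ligands were higher after SE on average but did not pass the test, and their levels stayed low. *Il1b* had 0.14 and 0.00 CPM before SE, 0.87 and 0.14 in the SE 6 h mice and 1.19 and 0.76 in the SE 2 days mice. At 6 h the mice overlapped with pre-SE through the shared 0.14 CPM (logFC = 1.64 ± 0.89, adjusted p = 0.37), whereas at 2 days both mice lay above (logFC = 2.77 ± 0.89, adjusted p = 0.11). These values rest on 4 and 0 tags before SE, 27 and 2 at 6 h and 28 and 16 at 2 days. With the replicate number as a block the 2-day difference had an adjusted p of 0.026, and with only the compared groups in the fit 0.028. These were the only 2 of 12 alternatives that called it, and its logFC ran from 0.879 to 4.63 over the 12. *Il1a* had 1.0 and 0.15 CPM before SE, 2.82 and 1.78 at 6 h and 3.14 and 0.43 at 2 days. At 6 h neither mouse overlapped with the pre-SE range (logFC = 2.16 ± 0.91, adjusted p = 0.25), and at 2 days the groups overlapped (logFC = 1.32 ± 0.91, adjusted p = 0.48). *Il1a* differed 6.67-fold between the pre-SE mice and 7.30-fold between the SE 2 days mice, which is as wide as the differences between groups.

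The balance of antagonist to ligand is given by the ratio of *Il1rn* to *Il1b*, taken as log2 of their CPM values with 0.1 added to each. This log2 ratio was -0.89 and 0.49 before SE, 3.61 and 3.57 at 6 h and 2.46 and 2.43 at 2 days. All SE mice lay above all pre-SE mice. The *Il1b* value of SE 6 h replicate 2 comes from 2 tags and those of pre-SE mice from 4 and 0, so that the added 0.1 CPM largely sets these ratios. The mean log2 ratio was -0.2 before SE, 3.58 at 6 h and 2.45 at 2 days (exact permutation test, two-sided, p = 0.33 each, the smallest that 2 against 2 allows). In SE + LEV 6 h mice it was -0.52 and 1.0, below both SE 6 h mice and overlapping with pre-SE (p = 0.33 and 0.67 by the same exact permutation test). In SE + LEV 2 days mice it was 2.97 and 3.45, where both genes were lower than in SE 2 days mice, and the direction of this last difference turned with an added 0.5 or 1 CPM. *Il1b* gave 7 and 1 tags in SE + LEV 6 h mice, with 4 and 3 of *Il1rn*, and 20 and 0 in SE + LEV 2 days mice. The ratios with LEV therefore also depend on the added 0.1 CPM. Set against *Il1a* and *Il1b* together, *Il1rn* was 3.17 and 1.43 times their summed CPM in SE 6 h mice and 1.62 and 3.82 times in SE 2 days mice. In SE + LEV 6 h mice the same quotient was 0.0388 and 0.212, with summed ligands as high as 3.12 CPM of *Il1a* plus 0.23 CPM of *Il1b* in replicate 1.

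**Figure D3:**
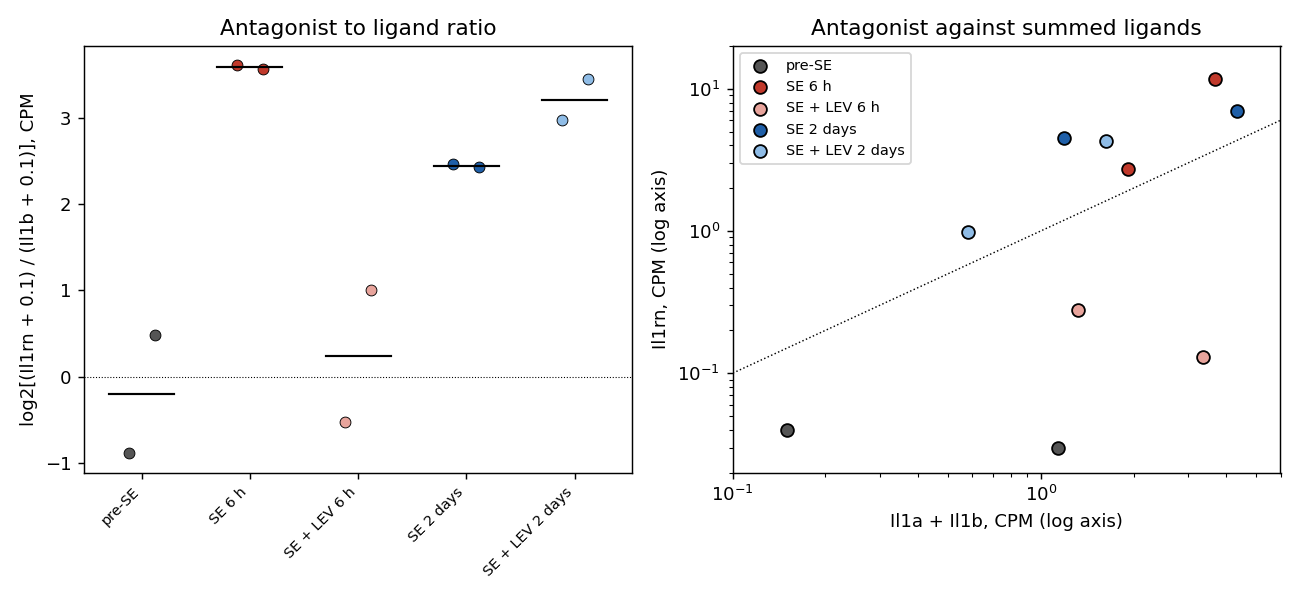
Left, log2 ratio of *Il1rn* to *Il1b* (CPM + 0.1) in each mouse with the mean of 2 as a line; right, *Il1rn* against summed *Il1a* and *Il1b* in CPM, both log axes, with a dotted line at equality. All SE and SE + LEV 2 days mice lie above equality, and the pre-SE and SE + LEV 6 h mice lie below it, SE + LEV 6 h mice with *Il1rn* of 0.13 and 0.28 CPM.

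Neither receptor chain passed the test after SE. *Il1r1* had 18 and 17.71 CPM before SE, 29.22 and 29.05 at 6 h and 24.42 and 21.40 at 2 days. The 2 groups of SE mice did not overlap with pre-SE, and the mice of SE 6 h differed by less than those of any other group, but the 6 h difference did not pass (logFC = 0.70 ± 0.38, adjusted p = 0.37). The summed endothelial markers (6 of 6 in the table) were also higher at 6 h, with 115 to 178 CPM in SE mice compared with 60.1 to 67.6 before SE. Of the 6 markers, 5 had a positive logFC and 1 a negative one, *Tek* (3.17 and 2.96 CPM before SE, 2.41 and 1.71 at 6 h). The part of endothelial cells in the *Il1r1* values was not tested. *Il1rap* had 83.98 and 70.06 CPM before SE, 82.62 and 60.36 at 6 h and 75.51 and 77.47 at 2 days, so that all 3 groups overlapped. The decoy receptor gene *Il1r2*, whose product binds ligand without signalling, had 0.03 and 0.04 CPM before SE, 0.45 and 0.27 at 6 h and 0.30 and 0.05 at 2 days, and was not called at either time. In SE + LEV 6 h mice *Il1r2* had 0.66 and 0.47 CPM, above both SE 6 h mice, from 20 and 5 tags.

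*Casp1* was called higher at 2 days and not at 6 h, and *Il33*, with no overlap at 2 days, missed the threshold. *Casp1* had 5.86 and 4.82 CPM before SE, 3.75 and 3.70 at 6 h and 21.33 and 11.80 at 2 days. Both SE 2 days mice were above all pre-SE and SE 6 h mice, and both SE 6 h mice were below both pre-SE mice (logFC = -0.50 ± 0.38, adjusted p = 0.52). The rise to 2 days was called against pre-SE (logFC = 1.56 ± 0.38, adjusted p = 0.041) and against SE 6 h (logFC = 2.06 ± 0.38, adjusted p = 0.016). In the latter comparison 1 of the 7 members was called, against 4.25% of all genes. The *Casp1* call against pre-SE was lost without pre-SE replicate 1 (adjusted p = 0.15), pre-SE replicate 2 (0.18), SE 2 days replicate 1 (0.18) or SE 2 days replicate 2 (0.064), and that against SE 6 h without SE 6 h replicate 1 (0.089), SE 6 h replicate 2 (0.086) or SE 2 days replicate 1 (0.13). *Il33* had 20.07 and 10.31 CPM before SE, 19.85 and 10.83 at 6 h and 49.52 and 69.06 at 2 days, so that both SE 2 days mice were above all pre-SE and SE 6 h mice. The *Il33* difference missed the threshold against pre-SE (logFC = 2.02 ± 0.58, adjusted p = 0.077) and against SE 6 h (logFC = 1.99 ± 0.58, adjusted p = 0.094). Its adjusted p against pre-SE was 0.041 with the replicate block and 0.016 with only the compared groups in the fit. These were the only 2 of 13 alternatives that called *Il33* against pre-SE, and against SE 6 h it was called in 1 of 13.

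Summed markers of several glial and blood-borne cells also differed at 2 days. Besides the microglial sums given above, in which *Aif1* was called higher at 2 days, astrocyte markers (6 of 6 in the table) were 2297 to 2437 CPM before SE and 3512 to 4936 CPM in SE 2 days mice, with *Gfap* and *Aqp4* called higher. Most of this difference was *Gfap* (246 and 230 CPM before SE, 2282 and 3642 CPM at 2 days), and 3 of the 6, *Slc1a2*, *Slc1a3* and *Gja1*, had both SE 2 days mice below both pre-SE mice (logFC = -0.93, -0.73 and -0.98, not called). Monocyte or macrophage markers (4 of 8 symbols in the table, with *Ccr2*, *Ly6c2* and *Arg1* not among them) were 1.88 to 2.89 CPM before SE and 12.5 to 13.4 CPM in SE 2 days mice, with *Ms4a7* and *Plac8* called higher. Neutrophil markers (3 of 8) were 5.04 to 5.84 and 12.4 to 14.8 CPM, mostly from *Csf3r* (4.45 and 4.24, then 11.32 and 10.13 CPM), while *S100a8* and *S100a9* overlapped with pre-SE and none of the 3 was called. Neuronal markers (8 of 8) were 5067 to 6630 CPM before SE and 3595 to 3998 CPM in SE 2 days mice. None of these markers was at 0 in a pre-SE or SE 2 days library, and the part of cell numbers in the *Casp1* and *Il33* values was not tested.

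**Figure D4:**
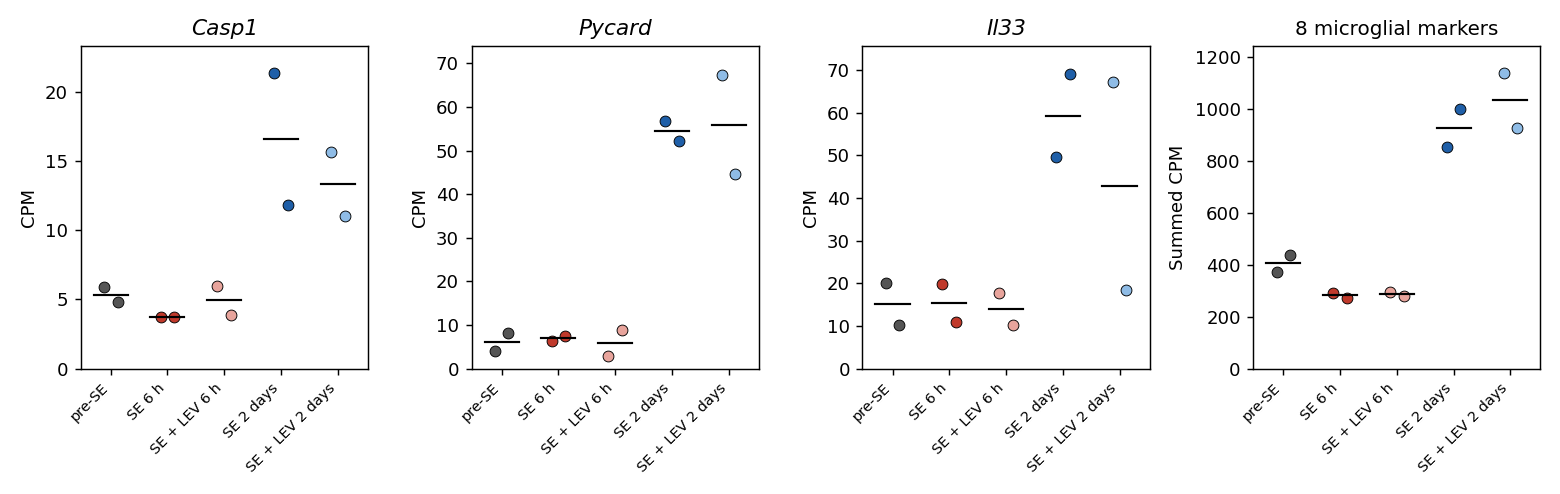
CPM of *Casp1*, *Pycard* and *Il33* and summed CPM of 8 microglial markers (vertical axes, from 0) in each mouse by group, with the mean of 2 as a line. All 4 panels are low before SE and at 6 h and higher at 2 days with or without LEV, except *Il33* in SE + LEV 2 days replicate 2 at 18.40 CPM.

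The LEV comparisons ask which members differed between SE mice with and without the drug. At 6 h, *Il1rn* had 0.13 and 0.28 CPM in SE + LEV mice, 4 and 3 tags, compared with 11.71 and 2.74 CPM in SE mice. At the lower of these SE levels, 82.5 and 28.9 tags would have been counted in the SE + LEV 6 h libraries, more than the 4 and 3 found. The *Il1rn* logFC was -4.29 ± 0.76 (unadjusted p = 0.0002, adjusted p = 0.14 in limma), which misses the threshold, and it was called under none of the 13 alternatives (adjusted p 0.0991 to 0.677). The pooled tag ratio was 0.0195 with an exact 95% counting interval of 0.0078 to 0.0405. It was 0.0629 (0.0238 to 0.142) without SE 6 h replicate 1, which gave most of the SE tags, and 0.0322 (0.0066 to 0.0947) without SE + LEV 6 h replicate 1. *Il1r1* was the other member below both SE 6 h mice, with 12.99 and 20.78 CPM (logFC = -0.82 ± 0.38, adjusted p = 1). Such a gap downward, with both mice below both SE mice, was seen in 2 of the 7 members and in 13.4% of all genes. *Casp1*, with 5.98 and 3.89 CPM, was above both SE 6 h mice, and *Il1a* (3.12 and 1.23 CPM), *Il1b* (0.23 and 0.09), *Il1rap* (61.90 and 56.83) and *Il33* (17.61 and 10.25) overlapped with SE 6 h. No member was called, compared with 0.0126% of all genes, and 1 of the 7 had an unadjusted p of at most 0.05. Of all 15851 genes tested, 184 had a positive and 542 a negative logFC at that level.

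Against pre-SE mice, SE + LEV 6 h mice had no member called, compared with 0.322% of all genes, and no member reached an unadjusted p of 0.05 in limma. Of all 15851 genes tested, 876 had a positive and 611 a negative logFC at that level. *Il1rn* was above both pre-SE mice (logFC = 1.13 ± 0.76, adjusted p = 0.66), from 7 tags against 3. *Il1a* was higher than in pre-SE mice in both SE + LEV 6 h mice, as it was in both SE 6 h mice.

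At 2 days with LEV, *Il1rn*, *Il1b* and *Il1rap* lay below the SE mice and the other members overlapped with them. *Il1rn* had 4.30 and 0.99 CPM in SE + LEV mice, both below the SE mice at 7.0 and 4.54 (logFC = -1.39 ± 0.76, adjusted p = 1). *Il1b* had 0.46 and 0.00 CPM, again both below (logFC = -2.15 ± 0.89, unadjusted p = 0.036, adjusted p = 1), and *Il1rap*, with 63.83 and 54.26 CPM, was the third such member (logFC = -0.38 ± 0.23, adjusted p = 1). Thus 3 of the 7 members had both SE + LEV mice below both SE mice, compared with 12.2% of all genes. *Il1a* (1.17 and 0.58 CPM), *Il1r1* (31.59 and 13.55), *Il33* (67.10 and 18.40) and *Casp1* (15.66 and 11.01) overlapped with SE 2 days. *Il33* differed 3.65-fold between the SE + LEV 2 days mice, and its logFC of -0.73 ± 0.58 turned to 0.20 without SE + LEV 2 days replicate 2. All 7 members had a logFC below 0, with a median of -0.50 beside 0.041 for all genes, and none was called. Limma called 0% of all genes in this comparison, and 208 genes had a positive and 220 a negative logFC at an unadjusted p of at most 0.05, *Il1b* among the latter.

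Set against pre-SE, SE + LEV 2 days mice still had *Il1rn* called higher (logFC = 4.02 ± 0.76, adjusted p = 0.019), 1 of 7 members compared with 2.85% of all genes. That call was lost without pre-SE replicate 1 (adjusted p = 0.11), pre-SE replicate 2 (0.091) or SE + LEV 2 days replicate 1 (0.16), with an added 0.5 CPM (logFC = 2.32, adjusted p = 0.12) or 1 CPM (logFC = 1.65, adjusted p = 0.26), and with only the 2 groups in the fit (0.078). *Casp1* was above pre-SE in both mice but was not called (logFC = 1.29, adjusted p = 0.14). *Il33* overlapped with pre-SE through replicate 2 (logFC = 1.28, adjusted p = 0.47) and was called without SE + LEV 2 days replicate 2 (logFC = 2.21, adjusted p = 0.043). The effect of LEV on *Il1rn* at 2 days minus that at 6 h was 2.90 ± 1.07 on the log2 scale (unadjusted p = 0.022, adjusted p = 1). In this test of the difference limma called 0% of all genes and no member, with 251 genes positive and 126 negative at an unadjusted p of at most 0.05.

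The wider pathway was read from a list of 45 gene symbols of receptors, inflammasome and signalling, in which some IL-36 family genes stood under both an older and a newer symbol. Of these symbols, 27 were in the table and tested, with *Il1rl1*, *Il18r1*, *Il18rap*, *Sigirr* and *Nlrp3* among those not analysed here. None of the 27 was called at 6 h, where 6 had a positive logFC and 0 a negative one at an unadjusted p of at most 0.05, as had 1460 and 1349 of the 15851 genes tested. The median logFC of the list was 0.29, beside -0.13 for all genes. At 2 days 5 of the 27 were called higher and 0 lower, beside 5.66% of all genes called, with a median logFC of 0.55 beside -0.032. They were *Pycard*, the adaptor that joins caspase-1 to its sensors (logFC = 3.25 ± 0.50, adjusted p = 0.0048), *Il18bp*, which encodes a soluble protein that blocks IL-18 (logFC = 3.10 ± 0.52, adjusted p = 0.0073), and *Gsdmd*, which encodes the pore-forming substrate of caspase-1 (logFC = 1.59 ± 0.36, adjusted p = 0.031). The others were the receptor adaptor *Myd88* (logFC = 2.44 ± 0.38, adjusted p = 0.0047) and *Nfkbiz*, an NF-kappaB cofactor induced by IL-1 (logFC = 1.86 ± 0.39, adjusted p = 0.022). *Pycard* had 3.93 and 8.08 CPM before SE, 6.38 and 7.47 at 6 h and 56.77 and 52.11 at 2 days, and *Gsdmd* 1.48 and 1.62, 1.51 and 1.78, and 6.02 and 3.92. *Il18bp* went from 0.41 and 0.19 CPM before SE through 0.45 and 0.21 at 6 h to 3.94 and 2.58 at 2 days.

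Like *Casp1*, the first 3 of these genes were higher at 2 days than at 6 h. *Pycard* (logFC = 2.96 ± 0.50, adjusted p = 0.011), *Il18bp* (logFC = 2.99 ± 0.52, adjusted p = 0.012) and *Gsdmd* (logFC = 1.51 ± 0.36, adjusted p = 0.046) were called between 6 h and 2 days, 3 of 27 beside 4.25% of all genes. *Myd88* had 3.62 and 5.36 CPM before SE, 9.91 and 16.10 at 6 h (logFC = 1.5 ± 0.38, adjusted p = 0.067) and 24.93 and 23.79 at 2 days. *Nfkbiz* had 6.59 and 9.13 CPM, then 25.88 and 17.13 (logFC = 1.43 ± 0.39, adjusted p = 0.092) and 24.08 and 33.72. Leaving out 1 mouse ended several of these calls. Against pre-SE, the call of *Gsdmd* was lost without pre-SE replicate 1 (adjusted p = 0.20), pre-SE replicate 2 (0.12), SE 2 days replicate 1 (0.13) or SE 2 days replicate 2 (0.078), and that of *Il18bp* without pre-SE replicate 2 (0.062). The *Nfkbiz* call was lost without pre-SE replicate 1 (0.16), pre-SE replicate 2 (0.058) or SE 2 days replicate 2 (0.21), while *Pycard* and *Myd88* held under all 13 alternatives. Between 6 h and 2 days, the calls of *Pycard* and *Gsdmd* were lost when any 1 of the 4 mice was left out, with adjusted p of 0.0633 to 0.0847 and 0.0924 to 0.24. *Gsdmd* was called there in only 5 of 13 alternatives, and was also lost with an added 0.01 CPM (0.054), with median-of-ratios rescaling (0.053), with the replicate block (0.065) and with only the compared groups in the fit (0.082). The *Il18bp* call was lost there without SE 6 h replicate 2 (0.091), SE 2 days replicate 1 (0.10) or SE 2 days replicate 2 (0.060).

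**Figure D5:**
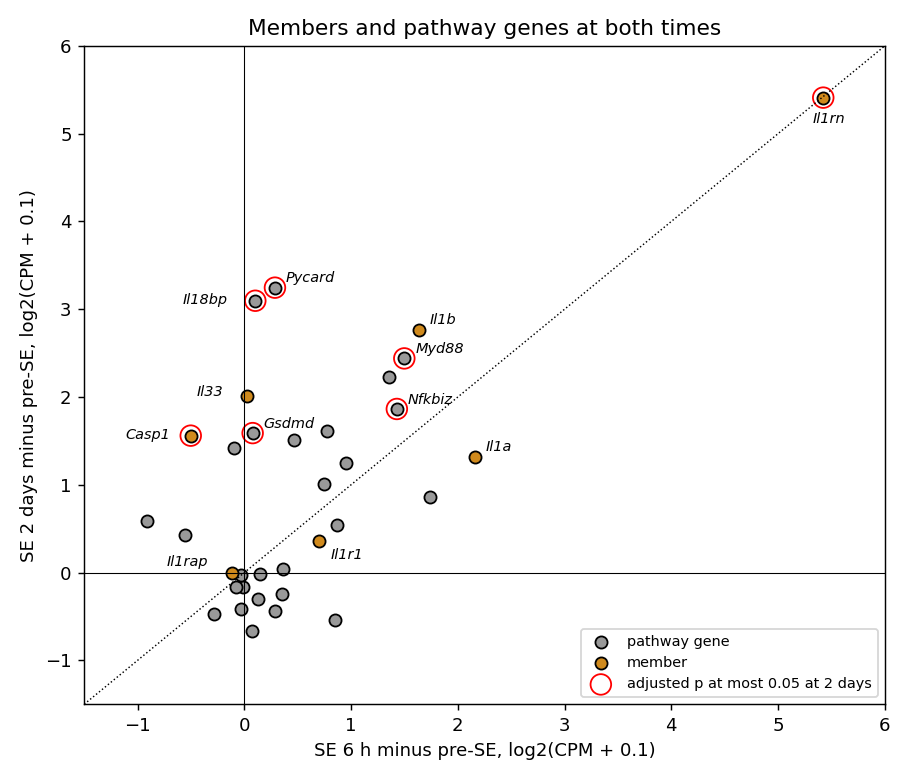
Each point is a member (orange) or pathway gene (grey) by its difference from pre-SE in log2(CPM + 0.1) at 6 h (horizontal) and 2 days (vertical), with red rings for an adjusted p of at most 0.05 at 2 days and a dotted line at equality. *Il1rn* lies on the line at 5.42 and 5.41, and *Pycard*, *Il18bp*, *Gsdmd* and *Casp1* lie near or left of 0 at 6 h and between 1.56 and 3.25 at 2 days.

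With LEV, no pathway gene was called against SE at 6 h or 2 days. At an unadjusted p of at most 0.05, 184 of the 15851 genes tested had a positive and 542 a negative logFC at 6 h, and 208 and 220 at 2 days. Among the 27 pathway genes there was none at 6 h and 1 at 2 days. That gene was *Nfkbiz*, with 17.53 and 8.46 CPM in SE + LEV 2 days mice (logFC = -1.22 ± 0.39, unadjusted p = 0.011, adjusted p = 1). *Pycard*, with 67.26 and 44.61 CPM, and *Gsdmd*, with 4.53 and 5.83 CPM, overlapped with SE 2 days mice and were called higher than pre-SE (adjusted p = 0.0076 and 0.037), as was *Myd88* with 19.87 and 11.54 CPM (adjusted p = 0.035). *Il1rl2*, the IL-36 receptor gene, and *Aim2*, a DNA sensor of the inflammasome, completed the 5 of 27 called in SE + LEV 2 days mice against pre-SE, beside 2.85% of all genes. *Il1rl2* had 0.52 and 0.33 CPM before SE and 2.35 and 3.12 with LEV at 2 days (logFC = 2.44 ± 0.48, adjusted p = 0.022), and *Aim2* 1.0 and 0.68 before SE and 2.97 and 3.12 (logFC = 1.76 ± 0.40, adjusted p = 0.045). In SE 2 days mice without LEV, *Aim2* had 3.01 and 2.15 CPM, overlapping with LEV (logFC against pre-SE = 1.51 ± 0.40, adjusted p = 0.056 in limma). *Il1rl2* had 1.91 and 1.15 CPM there (logFC against pre-SE = 1.62 ± 0.48, adjusted p = 0.081). The calls of *Il1rl2*, *Aim2* and *Gsdmd* were each lost when any 1 of the 4 compared mice was left out, with adjusted p of 0.0816 to 0.164, 0.127 to 0.295 and 0.14 to 0.26. With only the compared groups in the fit all 5 were lost (0.0511 to 0.14). *Aim2*, called in 6 of 14 alternatives, was also lost with an added 0.01 CPM (0.063), a filter of 1 CPM (0.057) and median-of-ratios rescaling (0.052). The replicate block ended the calls of *Gsdmd* (0.057) and *Myd88* (0.052), and an added 1 CPM that of *Myd88* (0.054). *Myd88* was lost without pre-SE replicate 1 (0.27), pre-SE replicate 2 (0.079) or SE + LEV 2 days replicate 1 (0.33), and *Pycard* without pre-SE replicate 1 (0.067) or SE + LEV 2 days replicate 1 (0.072).

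The genes whose pattern across the 10 libraries was most like each member were found by Pearson's r on log2(CPM + 0.1) among 14678 genes, as a description in which the points share libraries and groups. For *Casp1* they were *Dhx58*, *Eif2ak2* and *Sp100* (r = 0.979, 0.978 and 0.977), all known as genes induced by interferon, and for *Il33* they were *Ctsd*, *Mcm5* and *Cybb* (0.978, 0.967 and 0.964). *Dhx58* had 0.00 to 0.23 CPM before SE and at 6 h with or without LEV, and 7.04 and 2.24 CPM in SE 2 days mice. For *Il1rn* they were both rows named *Tor1aip2*, which hold the same values (r = 0.949), and *Gm16675* (0.948). *Il1b* was most like *Chga*, *Gm12282* and *Tirap* (0.961, 0.937 and 0.925), of which *Tirap* encodes an adaptor of Toll-like receptors. *Il1r1* was most like *Ifi203* and *Mndal*, which also share their values (0.881), and *Mir707* (0.832). *Il1rap* was most like *Fam49a*, *Smcr7l* and *Fhl2* (0.968, 0.91 and 0.908), and *Il1a* was most like *2700038G22Rik*, *C2cd4b* and *Hat1* (0.889, 0.887 and 0.875). Among the members themselves, r was highest between *Casp1* and *Il33* (0.843) and was 0.753 between *Il1rn* and *Il1b*.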

How the data were processed

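Whole hippocampi of 10 mice, 2 in each of 5 groups taken from the sample labels, were compared. The authors mapped CAGE tags to mm9 with BWA 0.7.17 and the remaining tags with HISAT2 2.0.5, grouped them into clusters using RECLU with those below 0.1 CPM removed, compared replicates with BEDtools 2.12.0, tested genes with edgeR 3.22.5 and deposited CPM values per gene and mouse. How clusters were summed to genes, and any sequencing batch, are not given in the sources used here. Tag totals were recovered from the steps of the CPM values (100% of values whole within rounding) and served for depth and tag counts only.

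Values were taken as log2(CPM + 0.1) for 15851 genes (0.1 CPM or more in 2 or more libraries) and fitted with limma 3.58.1 in R 4.3.3, with all 10 libraries, 5 group means and a trend of variance on mean. Tests were two-sided, adjusted by Benjamini and Hochberg. This fit was tested on simulated data. The ratio of *Il1rn* to *Il1b* was compared by exact permutation in Python 3.11.15 with numpy 2.4.6, and tag ratios have exact conditional 95% intervals from SciPy 1.17.1. Tables and figures were made with pandas 2.3.3 and matplotlib 3.10.9.

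The members and gene lists were chosen with earlier results of these data known. The rule named all members, 9 direct receptors and regulators, up to 8 called pathway genes per comparison by size of logFC, and the 3 genes most like each member, among those with 1 CPM or more in 2 or more libraries. *Il1rl2* and *Aim2*, called against pre-SE with LEV, were named after their values were seen. Alternatives were pseudocounts of 0.01, 0.5 and 1, no filter or 1 CPM, median-of-ratios rescaling, replicate block, no trend, fitting the compared groups alone, and each mouse left out. Leaving mice out of the pooled tag ratios was added after seeing the data. Same-numbered mice are different animals.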

Additional observations from a re-analysis of the deposited data

Results flagged for a closer look

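The effect of SE differed between 6 h and 2 days in 4 genes, 1 of 7 members and 3 of 27 pathway genes. These calls, beside 4.25% of all genes, are from limma's test of the difference, in which the shared pre-SE mice cancel. Each was lost when certain single mice were left out, as given above. The difference in log2(CPM + 0.1) was 2.06 for *Casp1* (adjusted p = 0.016), 2.99 for *Il18bp* (0.012), 2.96 for *Pycard* (0.011) and 1.51 for *Gsdmd* (0.046), and both SE 2 days mice were above both SE 6 h mice in each. Summed microglial markers were 273 to 292 CPM in SE 6 h mice and 853 to 999 CPM in SE 2 days mice, and their part in these differences was not tested.

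For *Il1rl2*, both SE + LEV mice lay below both SE mice at 6 h (0.60 and 0.28 against 0.64 and 0.96 CPM) and above them at 2 days (2.35 and 3.12 against 1.91 and 1.15 CPM). At 6 h such a gap downward was seen in 13.4% of all genes. The share of all genes lying on opposite sides at the 2 times was not counted. The effect of LEV at 2 days minus that at 6 h was 1.61 on the log2 scale (unadjusted p = 0.038, adjusted p = 1 in limma), so the test did not separate the effects. At 6 h these values rest on 18 and 3 tags with LEV.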

How the results depend on the processing

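Of 7 members, the count called in SE 2 days against pre-SE was 2 and became 4 with the replicate block and with only the compared groups in the fit, and 1 without any 1 of the 4 mice. In SE 2 days against SE 6 h it was 1, with 2 when only those groups were fitted and 0 to 1 without 1 mouse. In SE + LEV 2 days against pre-SE it was 1, with 0 at pseudocounts of 0.5 and 1 and with only those groups, and 0 to 2 without 1 mouse. The other 5 comparisons kept their counts of called members under the alternatives run. The *Il1rn* to *Il1b* difference between SE + LEV 2 days and SE 2 days was 0.76 on the log2 scale and turned to -0.13 and -0.34 with 0.5 and 1 CPM added, and that between SE + LEV 6 h and pre-SE was 0.44 and ran from -0.32 to 1.2 without 1 mouse. The *Il33* difference between SE + LEV 2 days and SE 2 days ran from -1.66 to 0.20 without 1 mouse. The cause of these changes was not tested.

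Of the remaining values, for 40 differences of single genes, 468 alternatives kept the direction and side of the threshold, 64 lost the call and 7 gained it. Same-numbered mice share only a number, and the correlations of their deviations ran from -0.44 to 0.34 over comparisons. Apart from the calls given above, the replicate block ended those of *Gsdmd* in SE 2 days against SE 6 h (adjusted p = 0.065), *Gsdmd* (0.057) and *Myd88* (0.052) in SE + LEV 2 days against pre-SE. Crossing the numbers in the SE + LEV 2 days mice, chosen after seeing the data, left 0, 1 and 0 members called in its 3 comparisons. Median-of-ratios rescaling moved the median of all genes from -0.13 to -0.005 at 6 h, and the genes called there were 532 higher and 22 lower instead of 437 and 32. For SE + LEV against SE at 6 h, 2 genes were called, and 0 to 9 under alternatives of the scale, filter, block or trend, for SE + LEV 6 h against pre-SE 51 and 14 to 59, and 0 and 0 to 1 for SE + LEV against SE at 2 days, and 0 and 0 to 2 when the LEV effects at both times were compared. A quasi-likelihood fit in edgeR and DESeq2 on recovered tags were not run. Precision is limited by 2 mice per group and by counts of 0 to 28 tags for *Il1b*.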
